A study of Mus musculus with 3 samples.

Results

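The vomeronasal receptor genes were taken as the protein-coding genes of chromosomes 1 to 19 whose symbol is Vmn1r or Vmn2r followed by a number. A gene table from RefSeq (assembly GRCm38.p6, the same coordinates as mm10) held 349 of them among 20560 protein-coding genes: 228 Vmn1r genes and 121 Vmn2r genes. Each gene was followed over its span with 5 kb on each side, called its window. Another 3 members with coordinates below 3 Mb (Vmn2r122, Vmn1r186 and Vmn1r187) were left out, as were all 105 protein-coding genes placed there.

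Erythroblasts that lacked the late erythroid surface marker Ter119 came from the livers of 6 mouse fetuses and were grown with 2 U/ml erythropoietin, 10% fetal bovine serum, 1% BSA and insulin. The study collected them at the start of culture (day 0) and again on day 1 and on day 2, and digested their chromatin with micrococcal nuclease (MNase), an enzyme that cuts between nucleosomes. The treatment was the same on all 3 days. The sources used here give neither strain nor genotype, nor whether the days share a culture or the fetuses were pooled. There was 1 library per day, so no difference between days below has a replicate check or a test. Intervals are exact 95% intervals and cover counting error only. The measurements are positions of nucleosomes, not RNA, so the labelled cell type could not be checked against its markers.

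Vomeronasal receptors are G protein-coupled receptors of the vomeronasal organ, a sense organ in the nose that detects pheromones and other social cues. Vmn1r genes encode V1R receptors, are read from a single coding exon and work with the G protein subunit encoded by Gnai2 in apical neurons. Vmn2r genes encode V2R receptors with a long extracellular domain, are split over several exons and work with the subunit encoded by Gnao1 in basal neurons. Each sensory neuron expresses 1 or a few of these genes. The genes lie in large tandem clusters with many near-identical copies and pseudogenes, and reads from copies that are nearly the same can be placed at the wrong copy, which leaves the value of a single gene uncertain.

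The start windows of 6 members, 250 bases before to 50 bases after the annotated start, show the sequence behind the values that follow. They are from RefSeq GRCm38.p6, written 5′ to 3′ on the gene's strand, and capitals mark bases that lie within 70 bases of the centre of a day 2 nucleosome position. Vmn1r1 and Vmn2r129 are shown as the members of each family with the highest position density, Vmn2r29 as the Vmn2r gene with the highest summit value, Vmn1r111 as 1 of 6 genes with an identical start window, and Vmn1r49 and Vmn2r116 as receptors with known ligands.
Vmn1r1, chr1:182158049-182158348, minus strand: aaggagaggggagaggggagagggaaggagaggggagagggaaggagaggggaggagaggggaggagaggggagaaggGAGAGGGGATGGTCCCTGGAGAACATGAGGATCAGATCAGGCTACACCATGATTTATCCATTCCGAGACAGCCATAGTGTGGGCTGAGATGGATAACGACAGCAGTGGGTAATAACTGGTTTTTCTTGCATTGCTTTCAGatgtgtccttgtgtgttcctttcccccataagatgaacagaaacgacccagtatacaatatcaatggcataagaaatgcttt
Vmn1r49, chr6:90072969-90073268, minus strand: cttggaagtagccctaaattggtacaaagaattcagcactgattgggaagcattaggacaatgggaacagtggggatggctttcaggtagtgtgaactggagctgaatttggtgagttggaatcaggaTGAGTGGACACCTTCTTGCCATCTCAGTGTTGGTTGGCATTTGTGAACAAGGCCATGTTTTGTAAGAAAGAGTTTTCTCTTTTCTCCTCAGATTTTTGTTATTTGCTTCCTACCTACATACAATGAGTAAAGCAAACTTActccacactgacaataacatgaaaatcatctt
Vmn1r111, chr7:20703167-20703466, minus strand: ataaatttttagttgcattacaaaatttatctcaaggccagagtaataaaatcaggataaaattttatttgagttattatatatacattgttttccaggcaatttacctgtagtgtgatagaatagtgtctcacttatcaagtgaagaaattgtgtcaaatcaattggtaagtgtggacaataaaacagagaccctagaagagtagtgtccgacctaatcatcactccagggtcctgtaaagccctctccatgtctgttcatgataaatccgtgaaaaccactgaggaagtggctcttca
Vmn2r129, chr4:156330853-156331152, plus strand: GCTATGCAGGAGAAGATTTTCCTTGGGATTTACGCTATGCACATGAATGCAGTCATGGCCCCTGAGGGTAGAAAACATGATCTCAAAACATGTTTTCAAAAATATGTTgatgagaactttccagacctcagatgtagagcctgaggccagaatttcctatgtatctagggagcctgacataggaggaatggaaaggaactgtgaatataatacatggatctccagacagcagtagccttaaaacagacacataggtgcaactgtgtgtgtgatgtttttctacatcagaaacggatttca
Vmn2r29, chr7:7278240-7278539, minus strand: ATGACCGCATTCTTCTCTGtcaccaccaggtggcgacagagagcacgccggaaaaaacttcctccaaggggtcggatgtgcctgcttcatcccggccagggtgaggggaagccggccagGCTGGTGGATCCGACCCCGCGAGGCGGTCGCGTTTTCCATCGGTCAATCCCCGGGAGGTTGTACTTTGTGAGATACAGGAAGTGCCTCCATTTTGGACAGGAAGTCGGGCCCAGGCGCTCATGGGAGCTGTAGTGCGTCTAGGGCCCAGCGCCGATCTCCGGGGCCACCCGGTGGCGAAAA
Vmn2r116, chr17:23384553-23384852, plus strand: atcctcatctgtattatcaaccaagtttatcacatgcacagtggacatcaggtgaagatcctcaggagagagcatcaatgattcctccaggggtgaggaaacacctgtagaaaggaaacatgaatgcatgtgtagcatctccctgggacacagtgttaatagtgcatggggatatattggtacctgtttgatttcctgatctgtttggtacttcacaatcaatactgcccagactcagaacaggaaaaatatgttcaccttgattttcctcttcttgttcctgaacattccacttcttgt

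The lists held 3689577, 2967550 and 4382151 positions on the autosomes on days 0, 1 and 2. That is 1.53, 1.23 and 1.82 positions per kb over 2404 Mb. Read numbers are not given in the files. The summit value, the authors' smoothed and scaled coverage signal at the position, averaged 7.80, 7.40 and 6.69 on days 0, 1 and 2. Its values lay on steps of 0.763, 0.324 and 0.626, with 96.7%, 97.5% and 98.0% of them within 0.02 of a step, so the smallest unit of signal differed between the libraries. Each density below was divided by the autosome density of the same library, and is called the relative density (1 is the autosome mean). This division scales for the number of listed positions and does not correct for the differing unit of signal.

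Vomeronasal receptor windows held far fewer listed nucleosome positions than the genome on every day, and the gap was smaller on day 2. The Vmn1r windows, 2631.9 kb in all, held 929, 610 and 2163 positions on days 0, 1 and 2. Their relative density was 0.230 (0.215 to 0.245) on day 0, 0.188 (0.173 to 0.203) on day 1 and 0.451 (0.432 to 0.470) on day 2. The Vmn2r windows, 4379.6 kb in all, held 1182, 899 and 3268 positions. Their relative density was 0.176 (0.166 to 0.186), 0.166 (0.156 to 0.178) and 0.409 (0.395 to 0.424) on days 0, 1 and 2. The windows of all protein-coding genes were at 1.36, 1.43 and 1.26 on the same scale, so both families went the other way between days 1 and 2.

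**Figure D1:**
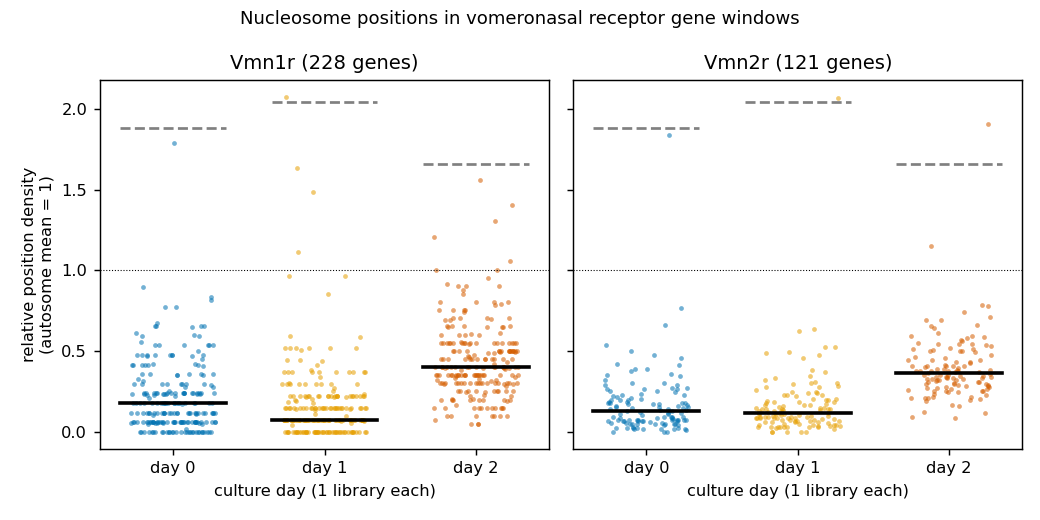
Relative position density of each Vmn1r gene (left) and each Vmn2r gene (right) on days 0, 1 and 2, with 1 point per gene window and sideways scatter for visibility. The black bars are the family medians, the dashed grey bars the medians of all protein-coding genes, and the dotted line the autosome mean of 1. Most receptor genes lie under the autosome mean on all 3 days, and both black bars are highest on day 2.

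The positions covered 4.93%, 3.22% and 11.4% of the Vmn1r windows on days 0, 1 and 2, and 3.77%, 2.85% and 10.37% of the Vmn2r windows. The positions that were listed had lower summit values than the average position of the same library. Their mean summit was 6.54, 6.47 and 5.84 in Vmn1r windows and 6.54, 6.31 and 5.85 in Vmn2r windows. The share with a summit of at least 10 was 2.80%, 6.39% and 2.31% for Vmn1r and 1.69%, 4.45% and 1.68% for Vmn2r, against 15.0%, 13.3% and 9.06% over the autosomes. The median distance to the nearest other centre was 295, 443 and 265 bp in Vmn1r windows and 348, 730 and 280 bp in Vmn2r windows, against 195, 175 and 200 bp over the autosomes. The receptor positions were thus sparse, wide apart and mostly of low signal.

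Between days 2 and 0, the scaled ratio of position numbers was 1.96 (1.81 to 2.12) for Vmn1r and 2.33 (2.18 to 2.49) for Vmn2r. Between days 2 and 1 it was 2.40 (2.19 to 2.63) for Vmn1r and 2.46 (2.29 to 2.65) for Vmn2r. Between days 1 and 0 it was 0.816 (0.736 to 0.905) for Vmn1r and 0.946 (0.866 to 1.03) for Vmn2r, so the interval was below 1 for Vmn1r only. That difference between the families was not tested. Over the windows of all protein-coding genes day 2 stood to day 0 at a ratio of 0.926 (0.925 to 0.928). Olfr genes, the odorant receptor genes, are another large clustered family of sensory neurons. Pooled, their 1103 windows had a ratio of 1.44 (1.40 to 1.48), with relative densities of 0.387, 0.343 and 0.557. The median Olfr gene was lower, at 0.179, 0.175 and 0.497, and 117, 92 and 107 Olfr genes were at or above the autosome mean. The median Vmn1r gene was at 0.178, 0.0744 and 0.402, and the median Vmn2r gene at 0.132, 0.118 and 0.362.

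These ratios depended on which positions were counted. Among positions with a summit of at least 8, day 2 over day 0 gave 1.90 for Vmn1r and 2.57 for Vmn2r, and at a summit of at least 10 it was 2.68 and 3.84. Pooled over each family, day 2 over day 1 came to 1.91 for Vmn1r and 2.46 for Vmn2r at 8. At 10 it came to 1.27 and 1.37, well under the values over all positions. For days 1 and 0 the Vmn1r ratio was 0.991 at 8 and 2.11 at 10. The Vmn2r ratio was 1.05 and 2.81. The ratios at 10 rested on few positions, many of them in genes near chromosome ends. Of 26, 39 and 50 such Vmn1r positions on days 0, 1 and 2, Vmn1r2 held 1, 7 and 7. Vmn1r3 held 1, 5 and 2 of them, and Vmn1r238 held 4, 14 and 10. Of 20, 40 and 55 such Vmn2r positions, Vmn2r129 held 9, 21 and 17. The ratios at 10 were not computed without these genes. Day 1 above day 0 at 10 is thus not shown for the families as a whole. The part of signal depth and of the list thresholds in the difference between days was not tested.

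The increase was spread over many genes. Between 2 days, a gene counted as higher or as lower when its scaled ratio, with 0.5 added to each number of positions, was at least 2 or at most 0.5, among genes with at least 6 positions summed over both days. Between days 2 and 0, 114 of 204 Vmn1r genes were higher and 4 lower, and 24 were under the minimum. Of 120 Vmn2r genes, 84 were higher and 0 lower, and 1 was under the minimum. Of all 20447 protein-coding genes with enough positions, 9.17% were higher and 1.24% lower. Of 1046 Olfr genes, 524 (50.1%) were higher and 43 lower, while the higher share was 55.9% for Vmn1r and 70% for Vmn2r. Over all members, the median ratio was 2.53 for Vmn1r and 2.77 for Vmn2r, against 2.04 for Olfr and 0.892 over all genes. With 12 positions required, 49 Vmn1r and 76 Vmn2r genes were higher, and with summits of at least 8 it was 2 Vmn1r and 13 Vmn2r genes. With spans alone, which are short in Vmn1r genes and rarely held 6 positions, 1 Vmn1r and 72 Vmn2r genes were higher. The shares over all genes were not computed at these 3 settings, so these counts cannot be set against a background. The ratio was above 1 for 198 of 228 Vmn1r genes and 117 of 121 Vmn2r genes, and for 877 of 1103 Olfr genes. The share above 1 over all genes was not computed.

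**Figure D2:**
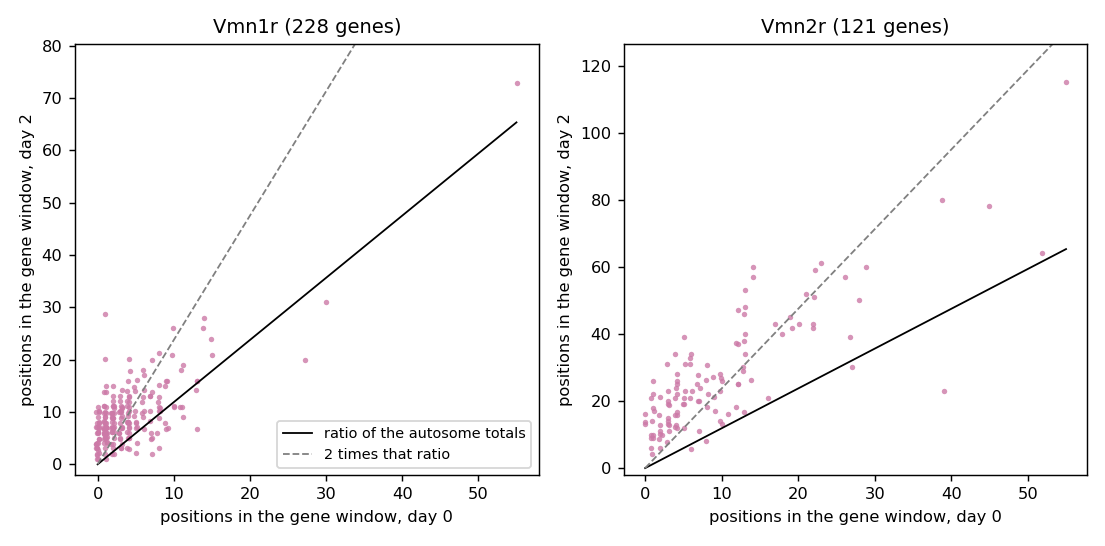
Number of positions in each gene window on day 2 (vertical axis) and on day 0 (horizontal axis), for 228 Vmn1r genes (left) and 121 Vmn2r genes (right), with a small scatter added to separate overlapping points. The solid line is the ratio of the autosome totals and the dashed line 2 times that ratio. Most points lie above the solid line in both families.

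Between days 2 and 1, 134 of 193 Vmn1r genes were higher and 2 lower, while 86 of 121 Vmn2r genes were higher and 0 lower. The shares over all genes were 12.6% higher and 0.191% lower, while 563 of 1044 Olfr genes (53.9%) were higher and 10 lower. Between days 1 and 0, 10 of 92 Vmn1r genes were higher and 31 lower, with 136 under the minimum. Of 93 Vmn2r genes, 9 were higher and 11 lower. Over all genes, 1.8% were higher and 6.43% lower, and of 600 Olfr genes 72 were higher and 125 lower. The numbers per gene were small: the median Vmn1r gene had 3, 1 and 8 positions on days 0, 1 and 2, and the median Vmn2r gene 7, 5 and 23, while the median protein-coding gene had 83, 76 and 88. No position was listed for 31, 50 and 0 Vmn1r genes and for 3, 5 and 0 Vmn2r genes. The order of the genes was kept only in part, since the Spearman correlation of relative density between days 2 and 0 across genes was 0.480 over 228 Vmn1r genes and 0.686 over 121 Vmn2r genes, which share the libraries and neighbouring copies and are not replicates.

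Among receptors with known roles, Vmn1r49, a receptor for the urinary pheromone 2-heptanone, had 2, 2 and 9 positions on days 0, 1 and 2. Vmn1r85 and Vmn1r89, which respond to sulfated steroids, had 6, 3 and 10 positions and 0, 3 and 11 positions. Vmn1r89 thus had none listed on day 0, and no fold is given for it. Vmn2r26, a receptor for peptides that bind major histocompatibility molecules, had 26, 8 and 57 positions, a scaled ratio of day 2 to day 0 of 1.85 (1.14 to 3.06). Vmn2r116, the receptor for the male tear peptide ESP1, had 11, 8 and 16, and the interval of its ratio of 1.23 (0.534 to 2.92) included 1.

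Vmn2r1 to Vmn2r7, on chromosome 3, encode the co-receptors that basal vomeronasal neurons express broadly beside their specific V2R receptor. Their 7 windows together held 103, 46 and 246 positions on days 0, 1 and 2, at relative densities of 0.201 (0.164 to 0.244), 0.112 (0.0818 to 0.149) and 0.405 (0.356 to 0.458). Day 1 was the lowest and day 2 the highest of the 3 days. Each of the 7 genes held more positions on day 2 than on day 0, with 115 against 55 for Vmn2r1, 43 against 20 for Vmn2r2 and 34 against 4 for Vmn2r7. The Vmn2r7 ratio was 7.16 (2.55 to 27.8), while Vmn2r4, Vmn2r5 and Vmn2r6 had intervals that reached below 1. The windows of Vmn2r1 and Vmn2r2 overlap, so they share positions. Vmn2r3, Vmn2r4 and Vmn2r5 were among the 11 Vmn2r genes counted as lower between days 1 and 0, with 2, 3 and 3 positions on day 1 against 9, 13 and 12 on day 0.

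The genes with the largest ratios of day 2 to day 0 started from almost nothing, though a ranking by ratio itself favours low day 0 numbers. Vmn1r89, Vmn1r139, Vmn1r198 and Vmn1r58 had 11, 10, 10 and 10 positions on day 2, against 0 each on day 0. Vmn1r63, with a long annotated span of 23885 bp, had 1, 8 and 29 positions on days 0, 1 and 2, and its ratio of day 2 to day 0 was 24.4 (4.05 to 997). In the Vmn2r family, Vmn2r44, Vmn2r28 and Vmn2r108 had 16, 14 and 13 positions on day 2, against 0 each on day 0. Vmn2r98 had 1, 3 and 26 positions on days 0, 1 and 2, a ratio of 21.9 (3.60 to 898) between days 2 and 0.

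Few members went the other way. Vmn1r120, Vmn1r17, Vmn1r28 and Vmn1r38 had 2, 3, 2 and 7 positions on day 2, against 7, 8, 5 and 13 on day 0. All 4 are the Vmn1r genes counted as lower, and each of their intervals reached above 1. Vmn2r83 had 39, 8 and 23 positions on days 0, 1 and 2, at relative densities of 0.765, 0.195 and 0.380. Its ratio of day 2 to day 0 was 0.497 (0.283 to 0.852), the lowest of its family and the only named one whose interval lay below 1, and with 0.5 added it did not pass the limit for lower. The next lowest, Vmn2r45 and Vmn2r46, had 6 and 8 positions on day 2, against 6 and 8 on day 0.

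The low density belonged to the clusters as a whole. With members less than 500 kb apart joined, the Vmn1r genes formed 15 clusters and the Vmn2r genes 19, of which 10 and 9 held at least 5 genes. All 19 of these larger clusters were under the autosome mean on each day, from 0.0287 to 0.430 on day 0, from 0.0396 to 0.345 on day 1 and from 0.196 to 0.660 on day 2. Day 2 exceeded day 0 after scaling in all 19, and the interval of the ratio lay above 1 in 9 of 10 Vmn1r clusters and 9 of 9 Vmn2r clusters of this size.

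**Figure D3:**
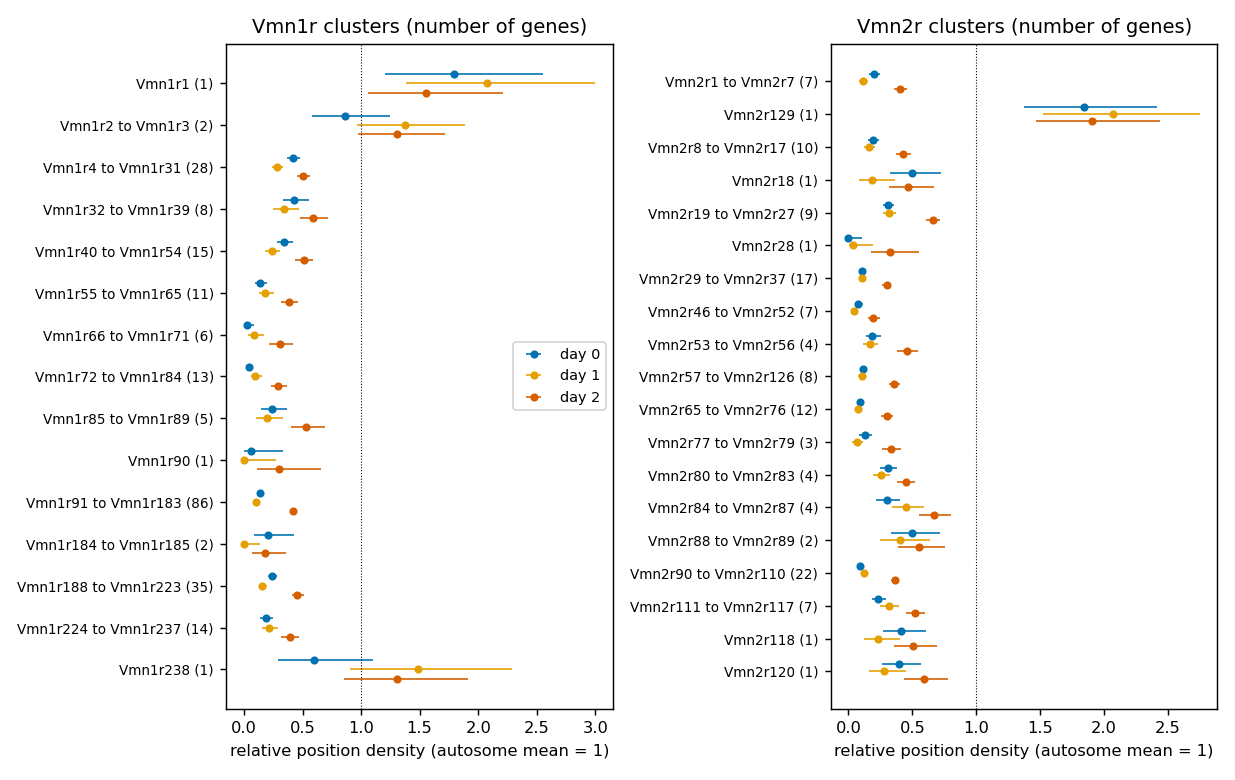
Relative position density of the member windows in each Vmn1r cluster (left) and Vmn2r cluster (right) on days 0, 1 and 2, with exact 95% Poisson intervals that cover counting error only, and the number of genes in brackets. The dotted line is the autosome mean of 1. All clusters of 5 genes or more lie left of it on each day, with their day 2 point farthest right, while Vmn1r1 and Vmn2r129 lie right of it.

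Clusters of 1 family differed from one another. The largest, Vmn1r91 to Vmn1r183 with 86 genes on chromosome 7 (chr7:20101158-24055691, mm10), had 200, 114 and 721 positions and relative densities of 0.138, 0.0977 and 0.419 on days 0, 1 and 2. Its ratio of day 2 to day 0 was 3.03 (2.59 to 3.57). Vmn1r66 to Vmn1r71 and Vmn1r72 to Vmn1r84, also on chromosome 7, had 3, 7 and 38 positions and 9, 17 and 76 positions. Their ratios between days 2 and 0 were 10.7 (3.38 to 54.0) and 7.11 (3.56 to 16.1), and unlike the largest cluster they held more positions on day 1 than on day 0. Over all of chromosome 7 the Vmn1r ratio of day 2 to day 0 was 3.11 (2.72 to 3.57).

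The 3 Vmn1r clusters of chromosome 6 changed less. Vmn1r4 to Vmn1r31, with 28 genes, had 242, 130 and 345 positions on days 0, 1 and 2, and a ratio of day 2 to day 0 of 1.20 (1.01 to 1.42). Vmn1r32 to Vmn1r39 had 62, 40 and 101, and Vmn1r40 to Vmn1r54, which holds Vmn1r49, had 99, 55 and 176. Together the chromosome 6 genes had a ratio of 1.299 (1.15 to 1.48), whose interval did not overlap that of chromosome 7. They were also denser on day 0, at 0.399 (0.361 to 0.440), against 0.127 (0.112 to 0.143) for the chromosome 7 genes. Vmn1r188 to Vmn1r223, the only cluster of chromosome 13, lay between them with 141, 74 and 316 positions and a ratio of 1.89 (1.54 to 2.32).

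Among Vmn2r clusters, Vmn2r90 to Vmn2r110 on chromosome 17, with 22 genes, had 118, 129 and 574 positions at relative densities of 0.0883, 0.120 and 0.362 on days 0, 1 and 2. Its ratio of day 2 to day 0, 4.10, was the highest of the Vmn2r clusters with a position on day 0. The neighbouring cluster Vmn2r111 to Vmn2r117, which holds Vmn2r116, had 73, 79 and 193 positions and a ratio of 2.23. On chromosome 7, Vmn2r46 to Vmn2r52 had the lowest day 2 density of all clusters of 5 genes or more, with 24, 10 and 73 positions at 0.0765, 0.0396 and 0.196. On chromosome 6, Vmn2r19 to Vmn2r27, which holds Vmn2r26, was the densest Vmn2r cluster of this size with 198, 164 and 498 positions at 0.312, 0.321 and 0.660. The order of the Vmn2r chromosomes thus ran from 0.317 on chromosome 7 to 0.660 on chromosome 6 on day 2, leaving out the single gene on chromosome 4.

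**Figure D4:**
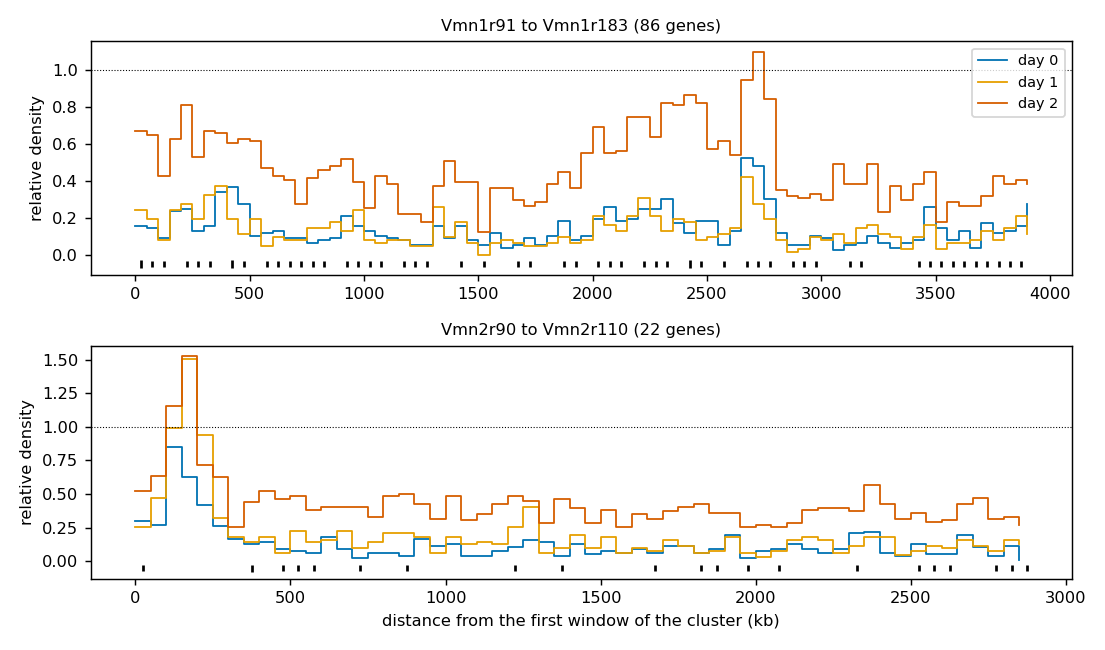
Relative position density in 50 kb bins along the largest Vmn1r cluster (top) and the largest Vmn2r cluster (bottom), by distance from the first window of the cluster in kb, for days 0, 1 and 2. Black ticks mark bins that hold member genes, and the dotted line is the autosome mean of 1. The day 2 line lies above the day 0 line in all 79 bins of the upper panel and all 58 bins of the lower panel.

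Within the 2 largest clusters the higher day 2 level ran along the whole length. The day 2 value was above the day 0 value in 79 of 79 bins of 50 kb in the Vmn1r cluster and 58 of 58 in the Vmn2r cluster. The median bin was at 0.117, 0.113 and 0.428 on days 0, 1 and 2 in the Vmn1r cluster and at 0.0912, 0.146 and 0.395 in the Vmn2r cluster. At least 1 position was listed in every bin of both clusters on days 0 and 2. The Vmn2r cluster also held a stretch without members, 100 to 200 kb from its first window, with values of up to 0.847, 1.51 and 1.53.

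Pooled over clusters, the density dropped steeply at the borders. Over the 10 Vmn1r clusters of at least 5 genes, the step from 100 to 150 kb outside the edge was at 1.16, 1.31 and 1.25 on days 0, 1 and 2. The last 50 kb outside were at 0.682, 0.732 and 0.813, and the first 50 kb inside at 0.325, 0.239 and 0.509. Over the 9 Vmn2r clusters the same steps were at 0.708, 0.919 and 0.928, at 0.395, 0.384 and 0.636, and at 0.229, 0.190 and 0.456. The pooled 500 kb flanks of those 10 Vmn1r clusters had a ratio of day 2 to day 0 of 1.02 (0.998 to 1.04). In the member windows of the same clusters it was 2.02 (1.86 to 2.19). For those 9 Vmn2r clusters the flanks had 1.21 (1.18 to 1.24), against 2.64 (2.44 to 2.86) in their member windows. Single clusters differed from these pooled values. On chromosome 7, Vmn2r46 to Vmn2r52 was at 0.0765, 0.0396 and 0.196 on days 0, 1 and 2, and its own flanks were as sparse, at 0.0377, 0.0607 and 0.174. Vmn1r66 to Vmn1r71 was at 0.0287, 0.0832 and 0.306, with flanks at 0.101, 0.135 and 0.369, and Vmn1r72 to Vmn1r84 had flanks at 0.196, 0.194 and 0.469. The flanks of these 3 clusters were denser on day 2 than on day 0. Vmn1r91 to Vmn1r183, in contrast, had flanks at 1.80, 2.41 and 1.73. These 4 clusters were chosen after their values were seen.

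**Figure D5:**
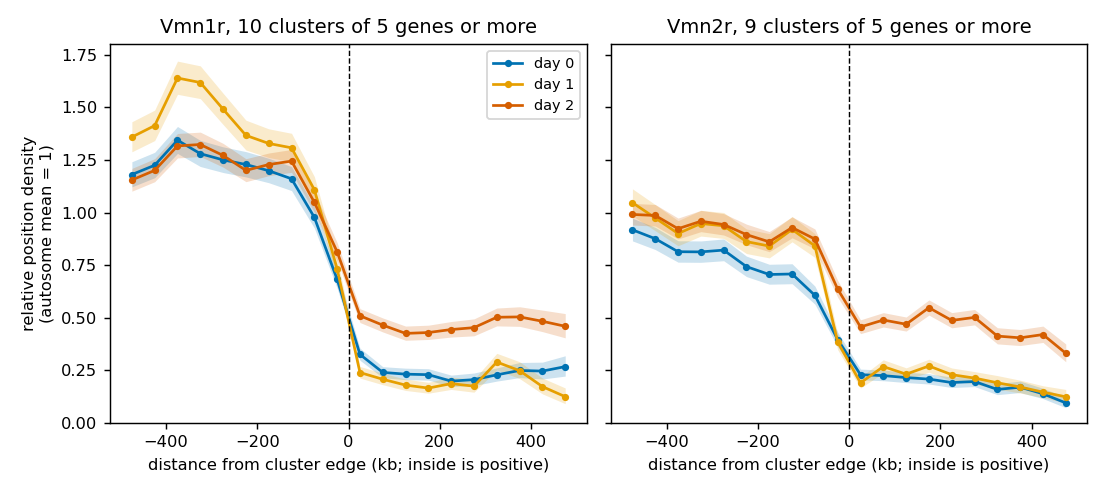
Relative position density in 50 kb steps from 500 kb outside (negative distance, in kb) to 500 kb inside (positive distance) the edges of the Vmn1r clusters (left) and Vmn2r clusters (right) of 5 genes or more, on days 0, 1 and 2. Shaded bands are exact 95% Poisson intervals for counting error, and the dashed line is the cluster edge. The pooled lines drop within about 100 kb of the edge on all 3 days, and inside the edge day 2 stays above days 0 and 1.

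Sequence between the receptor genes was at similar levels to the receptor windows. The parts of the Vmn1r clusters outside member windows were at 0.254, 0.240 and 0.522 on days 0, 1 and 2, with a ratio of day 2 to day 0 of 2.05 (1.97 to 2.14). Those of the Vmn2r clusters of this size were at 0.162, 0.193 and 0.440, with a ratio of 2.71 (2.58 to 2.86). Protein-coding genes of other families inside these clusters were denser, at 0.490, 0.624 and 0.796 in Vmn1r clusters and at 0.334, 0.445 and 0.627 in Vmn2r clusters.

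Pooled, the Vmn1r spans, with a median length of 924 bp, were somewhat denser than the 5 kb on either side. They held 179, 110 and 360 positions over 354.4 kb, which includes a few long spans. Vmn1r4 has 33695 bp, Vmn1r63 23885 bp and Vmn1r5 16016 bp. The window of Vmn1r4 alone, with its flanks, held 55, 46 and 73 positions. Whether the excess holds for the short spans alone was not tested. The spans were at 0.329, 0.251 and 0.557 on days 0, 1 and 2, and the flanking sequence at 0.214, 0.178 and 0.434. Vmn2r spans, with a median of 24737 bp, showed no such excess, at 0.172, 0.158 and 0.400 against 0.187, 0.189 and 0.434 in their flanks. Along the Vmn2r spans cut into 5 equal pieces, the piece at the 3′ end was denser than the one at the 5′ end, with 0.208 against 0.157 on day 0, 0.213 against 0.127 on day 1 and 0.435 against 0.362 on day 2. For day 1 the intervals of these 2 pieces did not overlap.

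A few members stood apart from their families. Vmn1r1, alone on chromosome 1, had 30, 28 and 31 positions and relative densities of 1.79 (1.21 to 2.56), 2.08 (1.38 to 3.001) and 1.56 (1.06 to 2.21) on days 0, 1 and 2. Its flanks of 500 kb were at 1.97, 2.06 and 1.71. Vmn2r129, alone on chromosome 4, had 52, 47 and 64 positions at 1.84, 2.07 and 1.91, and lies 18.6 kb from the last listed position of the chromosome. Vmn1r2 and Vmn1r3 on chromosome 4 and Vmn1r238 on chromosome 18 lie 122, 134 and 122 kb from the first listed position. They had 14, 22 and 28 positions, 15, 15 and 24 positions, and 10, 20 and 26 positions. These 4 genes near chromosome ends also had high summits on day 1, with means of 10.8 for Vmn2r129, 9.03 for Vmn1r2, 9.40 for Vmn1r3 and 13.0 for Vmn1r238. Vmn1r1, far from an end, had a mean of 6.38 on that day. No other member reached the autosome mean on day 0 or day 1, and the part of the chromosome ends in these values was not tested.

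Vmn1r4, the Vmn1r gene with the most positions, had 55, 46 and 73 on days 0, 1 and 2 and the highest summit of its family, 22.1 on day 2. Its annotated span of 33695 bp is the longest of the family, and its window also holds Nt5c3, a gene for a nucleotidase. Within Nt5c3 or 1 kb from it lay 13, 12 and 21 of these positions, and the highest summit there on day 2 was 13.6. The window of Vmn2r29 likewise holds parts of Zfp772 and Clcn4. Vmn2r29 had 45, 26 and 78 positions, and the highest summit of the Vmn2r genes, 22.9 on day 1. Within Zfp772 or Clcn4 or 1 kb from them, the highest summit on that day was 7.44. Windows that hold a protein-coding gene of neither receptor family were found for 2 Vmn1r and 4 Vmn2r genes.

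The start windows, like the whole gene windows, had few listed nucleosomes. Of 205 Vmn1r genes with a start window in the RefSeq table, 11, 9 and 22 had a centre in it on days 0, 1 and 2. Of 115 Vmn2r genes, 14, 8 and 29 had one. Over all 16457 protein-coding genes with a start window, the shares were 52.3%, 52.3% and 63.0%. Relative density in the Vmn1r start windows was 0.127, 0.132 and 0.205, under the 0.230, 0.188 and 0.451 of the whole windows. In the Vmn2r start windows it was 0.264, 0.188 and 0.493, above the 0.176, 0.166 and 0.409 of the whole windows. These values rest on 12, 10 and 23 Vmn1r positions and 14, 8 and 31 Vmn2r positions. On no day was a centre found in 166 of the Vmn1r and 74 of the Vmn2r start windows, those of Vmn1r111 and Vmn2r116 printed above among them. Vmn1r49 had a centre there only on day 2, 53 bases before the start. A centre on all 3 days was listed for Vmn1r1 in the one family and for Vmn2r29, Vmn2r89 and Vmn2r129 in the other. Vmn2r89, chosen after its values were seen, has all its positions inside or within 1 kb of the gene model Gm7247.

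The start windows were poor in GC. Their median GC content was 36.0% for Vmn1r and 38.0% for Vmn2r, against 56.7% over all genes, and the median number of CG dinucleotides was 1, 1 and 14. Vmn2r29 was unlike the other members shown, with 62.3% GC and 23 CG, and its centres lay 12 bases before the start on day 0 with a summit of 7.99, 28 bases after it on day 1 with 20.9, and 62 bases before it on day 2 with 17.1. The letters TATAAA, the core of the TATA box, were found on either strand in 42.4% of Vmn1r and 23.5% of Vmn2r windows, against 13.5% of all. TAATTA, a core bound by homeodomain factors, was found in 7.32% of Vmn1r and 17.4% of Vmn2r windows, against 4.62% of all, and reads the same on both strands. An ATG stood at the annotated start in 87.8% of Vmn1r and 87.0% of Vmn2r windows, against 9.01% of all. The annotated start is therefore mostly the start codon, and these windows may miss the transcription start.

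Copies of the same sequence were common. Identical start windows were shared by 54 Vmn1r genes in 21 groups and 8 Vmn2r genes in 4 groups. The largest group, Vmn1r111, Vmn1r118, Vmn1r131, Vmn1r138, Vmn1r257 and Vmn1r166, all in the large chromosome 7 cluster, held 5, 3 and 36 positions in their 6 gene windows on days 0, 1 and 2. In each of these 6 genes day 2 had the most positions, from 4 to 8, against 0 to 2 on day 0. Vmn1r genes whose closest family member was at least 95% identical over the start window had a ratio of day 2 to day 0 of 2.60 (2.25 to 3.02), against 1.70 (1.45 to 2.01) at 80 to 95% and 1.79 (1.57 to 2.04) under 80%. For Vmn2r the same classes had ratios of 2.97 (2.59 to 3.42), 2.39 (2.17 to 2.65) and 1.75 (1.53 to 2.00). The most similar copies thus had the largest ratios of day 2 to day 0 in both families. The lower Vmn1r classes did not follow the order, and the intervals of the first 2 Vmn2r classes overlapped. Between days 2 and 1 the classes had 3.58, 2.00 and 2.28 for Vmn1r and 2.60, 2.33 and 2.56 for Vmn2r. Relative densities on day 0 were 0.173, 0.281 and 0.231 for Vmn1r and 0.140, 0.170 and 0.241 for Vmn2r. On day 2 they were 0.451, 0.479 and 0.413, and 0.417, 0.407 and 0.421. All identical Vmn1r groups except Vmn1r47 with Vmn1r48 lay on chromosome 7. The Vmn1r ratio was 3.11 on that chromosome and 1.299 on chromosome 6, and similarity was not separated from chromosome. The part of read placement among copies in the result was not tested. Genes under 80% held 723 positions on day 2 against 341 on day 0 for Vmn1r, and 685 against 330 for Vmn2r.

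Few receptor positions recurred between days. Of the day 2 positions, 3.33% (2.61 to 4.17) in Vmn1r windows and 2.60% (2.08 to 3.21) in Vmn2r windows had a day 0 centre within 20 bp, against 13.3% over the autosomes. Of the day 1 positions, 7.54% in Vmn1r and 4.67% in Vmn2r windows had one, against 17.0%. Sharing depends on density, which was lower in the receptor windows. Centres within 20 bp of the day 0 centre on both later days were found for 10 of 929 Vmn1r positions and 6 of 1182 Vmn2r positions, 1.08% and 0.508%, against 3.14% over the autosomes. Vmn1r2 and Vmn1r3 held 5 of the 10 and Vmn2r129 held 2 of the 6, so the recurring positions lay in good part in genes near chromosome ends.

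Of 33 genes found from a list of 34 genes of vomeronasal signalling, development and co-receptors, 6 were higher and 1 lower between days 2 and 0, and 26 were neither, beside 9.17% higher and 1.24% lower over all genes. Trpc2, the cation channel that vomeronasal neurons need to respond, had 122, 107 and 106 positions on days 0, 1 and 2, at relative densities of 3.35, 3.65 and 2.45. Gnai2, the G protein subunit of apical neurons and a gene used in many tissues, had 159, 171 and 164, and Gnao1, that of basal neurons, 492, 236 and 341. The 20 signalling, factor and adhesion genes had a median relative density of 2.41, 2.32 and 1.73. At or above the autosome mean were 16, 14 and 15 of these 20 on days 0, 1 and 2, close to the 73.3%, 70.1% and 73.8% of all protein-coding genes. The 13 other receptor and H2-M genes had medians of 0.631, 0.303 and 0.790. Of the 6 higher genes, 4 were the formyl peptide receptors Fpr-rs3, Fpr-rs4, Fpr-rs6 and Fpr-rs7, which also act as vomeronasal receptors and lie on chromosome 17. Fpr-rs7 and Fpr-rs6 had 8 and 6 positions on day 2, against 0 each on day 0. H2-M1, a nonclassical class I gene of basal vomeronasal neurons, had 12 on day 2 against 3 on day 0. Robo2, an axon guidance receptor, had 1306 on day 2 against 525 on day 0. H2-M9, of the same group as H2-M1, was the lower gene with 8 on day 2 against 16 on day 0.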

How the data were processed

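Per the file headers, each library's nucleosome positions were deposited as a list with a summit value (a smoothed coverage signal), a fuzziness score and a p-value for each position. The p-values were not used. Bowtie2, bedtools and mm10 are named in the submitters' processing notes, while the sources used here give no versions, position caller or read totals. Positions were called separately per library, so each count was divided by the autosome density of its library. A position belonged to a window when its centre lay in it. Intervals were exact Poisson for numbers, exact conditional binomial for ratios and Clopper-Pearson for shares (scipy 1.17.1, Python 3.11.15, pandas 2.3.3, numpy 2.4.6). Start windows came from RefSeq and were aligned with edlib 1.3.9.post1. Counting was tested on simulated data. The members and lists were chosen with earlier results of these data known. Named genes were, per family, the 6 with the most positions, the 4 largest and 4 smallest ratios of day 2 to day 0 (at least 6 positions), the 2 longest, the highest summit, and well-known receptors. Vmn2r121 on chromosome X was outside the rule.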

Additional observations from a re-analysis of the deposited data

How the results depend on the processing

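The relative densities, ratios between days and numbers of genes were recomputed with other settings, of which 4 sets of left-out members were chosen after seeing the data. Of 268 values, 143 stayed within the counting interval or within 1.5 times, 124 moved and 1 reversed, and the causes were not tested. Both families stayed under the autosome mean on each day, and above 1 for day 2 over day 0, in every setting run. The reversal was the Vmn1r ratio of day 1 to day 0 at a summit of at least 10, which was 2.11, with ratios of 1.27 for day 2 over day 1 and 2.68 for day 2 over day 0 and densities of 0.0429, 0.0903 and 0.115 on days 0, 1 and 2. For Vmn2r that limit gave ratios of 2.81, 1.37 and 3.84 in the same order and densities of 0.0198, 0.0557 and 0.0761. At a summit of at least 8, Vmn1r densities were 0.0748, 0.0741 and 0.142, with 0.991 for day 1 over day 0 and 1.91 for day 2 over day 1, and Vmn2r densities were 0.0533, 0.0557 and 0.137, with 1.05 for day 1 over day 0 and 2.57 for day 2 over day 0. Summed summits gave 0.193, 0.164 and 0.394 for Vmn1r and 0.148, 0.142 and 0.358 for Vmn2r. Scaling to gene windows gave 0.169, 0.131 and 0.358 with 2.72 for day 2 over day 1 (Vmn1r), and 0.129, 0.116 and 0.325 with 2.79 for day 2 over day 1 and 2.51 for day 2 over day 0 (Vmn2r). With spans alone Vmn1r was at 0.329, 0.251 and 0.557 with 1.69 for day 2 over day 0. With 2 kb on each side it was at 0.162 and 0.415 on days 1 and 2, with 0.708 for day 1 over day 0, and with 10 kb Vmn2r was at 0.426 on day 2. Without the largest cluster Vmn1r was at 0.282, 0.238 and 0.469, with 1.97 for day 2 over day 1 and 1.67 for day 2 over day 0, and Vmn2r at 0.198 and 0.178 on days 0 and 1, with 2.13 for day 2 over day 0. Without start windows that were 95% identical Vmn1r was at 0.260 and 0.220 on days 0 and 1, with 2.05 and 1.74 for the same ratios, and Vmn2r at 0.189 on day 0, with 2.14 for day 2 over day 0. Without clusters of fewer than 5 genes Vmn1r was at 0.166 on day 1, with 2.63 for day 2 over day 1, and Vmn2r at 0.147, 0.144 and 0.389, with 2.70 for day 2 over day 1 and 2.64 for day 2 over day 0. Without the 4 members at chromosome ends Vmn1r was at 0.172 on day 1. That setting was not run at a summit of at least 10, where the reversal arose. Of the 39 Vmn1r positions there on day 1, Vmn1r2, Vmn1r3 and Vmn1r238 held 7, 5 and 14.

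Numbers of genes depended on the minimum and on the window. The shares over all genes were computed at the main setting only, so the counts that follow have no background beside them. Higher between days 2 and 0 were 1 Vmn1r gene with spans alone, 49 with at least 12 positions and 2 at a summit of at least 8, and 55 Vmn2r genes at a fold of 3 and 13 at a summit of at least 8. Higher between days 2 and 1 were 4, 54 and 1 Vmn1r genes in those same 3 settings and 86 at a fold of 3, and 47 Vmn2r genes at a fold of 3 and 8 at a summit of at least 8. Higher between days 1 and 0 were 1, 2 and 4 Vmn1r genes in those 3 settings, 42 with no minimum, 17 at a fold of 1.5 and 3 at a fold of 3, and 15 Vmn2r genes with 10 kb, 16 with no minimum, 5 with at least 12, 17 at 1.5, 5 at 3 and 3 at a summit of at least 8. Lower between days 1 and 0 were 2, 8 and 1 Vmn1r genes in those 3 settings, 49 with 10 kb, 70 with no minimum and 16 at a fold of 3, and 17 Vmn2r genes with no minimum, 19 at 1.5, 5 at 3 and 0 at a summit of at least 8. Lower between days 2 and 0 were 0, 1 and 1 Vmn1r genes in those 3 settings, 0 with 10 kb, 12 at 1.5 and 1 at 3, and 1 Vmn2r gene each with spans alone, at 1.5 and at a summit of at least 8. Lower between days 2 and 1 were 1, 0 and 1 Vmn1r genes in those 3 settings and 1 with 10 kb, and 3 at a fold of 1.5. With centres within 10 and 50 bp, the share of day 2 positions near a day 0 centre was 1.90% and 7.26% for Vmn1r and 1.32% and 6.15% for Vmn2r. It was 1.76% and 6.52%, and 1.62% and 6.40%, for day 2 near day 1, and 2.79% and 13.4%, and 2.00% and 11.2%, for day 1 near day 0. Joining members less than 200 kb apart gave 29 Vmn2r clusters in place of 19. The planned setting without members of 95% identical protein was not run, since protein sequences were not used here. No paired analysis was possible because each day has 1 library.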

Other observations

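Pseudogenes of the families were treated apart from the protein-coding members. The Vmn1r pseudogene windows held 549, 355 and 1098 positions on days 0, 1 and 2, at relative densities of 0.288, 0.231 and 0.485, a scaled ratio between days 2 and 0 of 1.68 (1.52 to 1.87). The Vmn2r pseudogene windows held 1774, 1835 and 3782 positions, at 0.402, 0.518 and 0.722, with a ratio of 1.79 (1.70 to 1.90). Both pseudogene sets were denser than the protein-coding members of the same family on each day. Stretches that also lie in a member window were left out of these pseudogene windows, while stretches in genes of other families were not. The share of positions with a summit of at least 10 was 11.7%, 17.9% and 15.3% in Vmn2r pseudogene windows. In Vmn2r member windows it was 1.69%, 4.45% and 1.68%. For Vmn1r it was 4.92%, 3.94% and 1.46% in pseudogene windows, against 2.80%, 6.39% and 2.31% in member windows. The part of other genes in these values was not tested.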
